A study of Homo sapiens with 6 samples.

Results

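Small nucleolar RNA host genes are transcribed into spliced RNAs whose introns hold small nucleolar RNAs (snoRNAs). The 10 host genes described here are GAS5, SNHG1, SNHG5, SNHG6, SNHG7, SNHG8, SNHG12, SNHG14, SNHG15 and SNHG16. They were chosen by name, as the rows of the count table that carry these symbols, and they make up 10 of 58735 rows. All 10 had enough counts to be tested, among 15935 genes.

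RD is an established human embryonal rhabdomyosarcoma line (ERMS in the labels) with a skeletal muscle phenotype. RD cells were transduced with lentivirus that carried either a scrambled shRNA (control, n = 3) or a shRNA against TAK1 (TAK1 knockdown, n = 3), and polyadenylated RNA was sequenced. Per the study's methods the knockdown samples carry TAK1 shRNA 1 alone, so an effect of losing TAK1 and an effect of that construct cannot be told apart. The time from transduction to harvest of the sequenced RNA is not given in the sources used here, and nothing in the labels says that the 3 replicates of a group were separate cultures, so p-values measure the spread between these samples, which may be technical. The muscle markers MYOD1, MYOG, DES, CHRNA1 and MYMK were all detected in the control samples, at means of 263, 141, 340, 921 and 6.83 counts-per-million (CPM, after trimmed-mean normalization). MAP3K7, the gene that encodes TAK1, had a mean of 77.3 CPM in control and 31.3 CPM in TAK1 knockdown cells, a log2 fold change of -1.30 (adjusted p = 4.45e-14, edgeR's quasi-likelihood test). In knockdown cells MYOD1, MYOG and MYMK rose, by 0.37, 0.27 and 0.98 on the log2 scale, CHRNA1 fell by 0.40 and DES had 0.089 (adjusted p = 0.119). The part of these changes in the results below was not tested.

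A mature snoRNA guides the chemical modification of ribosomal and other RNAs. Box C/D snoRNAs direct ribose methylation and box H/ACA snoRNAs direct the conversion of uridine to pseudouridine. After splicing, the excised intron is debranched and trimmed back to the snoRNA, while the joined exons leave the nucleus as a long RNA with little coding capacity. Many of these spliced RNAs start with a run of pyrimidines, as do the mRNAs of ribosomal proteins (TOP mRNAs), and GAS5 and SNHG1 are known to be destroyed by nonsense-mediated decay when they are translated. The amount of the spliced RNA therefore reflects transcription and decay together, and it is not a measure of the snoRNAs made from the introns. In cells that stop growing, GAS5 is known to accumulate, which gave the gene its name, growth arrest specific.

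RefSeq places 118 snoRNAs inside the spans of the 10 host genes in GRCh38.p14. Of these, 108 are named as box C/D, 8 as box H/ACA and the other two as neither. SNHG14 spans 84 of them, mostly the repeated SNORD115 and SNORD116 copies, GAS5 spans 11, SNHG1 9, SNHG12 4 and SNHG16 3. SNHG5 and SNHG7 span 2 each, and SNHG6, SNHG8 and SNHG15 span 1 each.

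Examples from 4 host genes are printed to show what the introns carry, read 5′ to 3′ on the strand of the host from the GRCh38 genome at RefSeq coordinates. Capitals mark the box sequences found by a search for TGATGA near the start and CTGA near the end of a box C/D snoRNA, and for ACA near the end of a box H/ACA snoRNA. For the box C/D snoRNA SNORD99 of SNHG12, searched in the same way and not printed, CTGA was found but TGATGA was not. SNORD44 lies in GAS5 at chr1:173865968-173866028 on the minus strand, SNORD25 in SNHG1 at chr11:62855565-62855631 on the minus strand, SNORD116-2 in SNHG14 at chr15:25054209-25054305 on the plus strand and SNORA24 in SNHG8 at chr4:118279190-118279320 on the plus strand.
SNORD44: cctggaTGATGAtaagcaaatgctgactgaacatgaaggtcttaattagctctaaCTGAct
SNORD25: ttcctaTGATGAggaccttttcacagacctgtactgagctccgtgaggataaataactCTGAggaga
SNORD116-2: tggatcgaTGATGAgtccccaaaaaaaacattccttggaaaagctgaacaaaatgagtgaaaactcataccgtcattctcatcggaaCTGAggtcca
SNORA24: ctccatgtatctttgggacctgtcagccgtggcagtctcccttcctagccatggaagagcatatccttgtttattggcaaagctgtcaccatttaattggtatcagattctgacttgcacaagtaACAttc

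The starts of the host genes were compared as well, because a pyrimidine run directly at the start is the mark of the TOP class. The RefSeq promoter table held 8 of the 10 host genes and had no entry for SNHG6 or SNHG15. The longest run made only of C and T, searched from 20 bases before to 50 bases after the annotated start, was 6 to 12 bases in these 8, with a median of 7.5 against a median of 6 over 35116 promoters. This longest run spanned the start in SNHG5, SNHG8 and SNHG12 and lay away from it in the others. The share of all promoters whose longest run spans the start was not computed. It began 14 bases before the start in SNHG7 and 9 before it in SNHG14. In SNHG16, SNHG1 and GAS5 it began at bases 4, 5 and 32 of the transcript. Only the longest run was taken, and shorter ones also span the start, tcctct in SNHG7 and ttctc in SNHG1. A run longer than 6 was found in 6 of the 8 host genes and in 37.6% of all promoters. The window was set after the sequences were seen, and a run within it need not lie at the start. These shares are therefore a description and not a test of the TOP mark. The letters TATAA, searched on either strand from 45 to 16 bases before the start, were present in 4 of the 8, which were SNHG5, SNHG7, SNHG8 and SNHG12, against 5.04% of all promoters. In these 4 they lay on the transcribed strand, where 4.09% of all promoters held them. The 6 starts below belong to the host genes whose values are described at most length, from 45 bases before to 50 bases after the start, with the longest C and T run and any TATAA in capitals. The windows of GAS5, SNHG1, SNHG7 and SNHG12 are on the minus strand at chr1:173868996-173869090, chr11:62855836-62855930, chr9:136728135-136728229 and chr1:28581824-28581918. Those of SNHG14 and SNHG16 are on the plus strand at chr15:24823563-24823657 and chr17:76557719-76557813.
GAS5: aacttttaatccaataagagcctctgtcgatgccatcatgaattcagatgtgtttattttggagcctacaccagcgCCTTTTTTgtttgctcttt
SNHG1: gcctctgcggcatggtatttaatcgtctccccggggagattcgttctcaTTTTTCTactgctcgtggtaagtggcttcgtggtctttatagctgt
SNHG7: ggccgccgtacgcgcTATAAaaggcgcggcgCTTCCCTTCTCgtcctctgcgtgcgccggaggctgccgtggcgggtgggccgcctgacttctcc
SNHG12: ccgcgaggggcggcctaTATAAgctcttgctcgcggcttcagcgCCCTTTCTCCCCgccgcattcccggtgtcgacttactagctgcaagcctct
SNHG14: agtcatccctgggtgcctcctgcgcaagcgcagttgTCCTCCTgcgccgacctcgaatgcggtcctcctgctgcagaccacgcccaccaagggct
SNHG16: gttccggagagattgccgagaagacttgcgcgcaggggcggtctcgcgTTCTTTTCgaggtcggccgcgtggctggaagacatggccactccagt
These are RefSeq starts, which differ from the outermost starts that GENCODE 44 gives the genes. The GENCODE start lies 154975 bases downstream in SNHG14, whose RefSeq start is that of the SNURF-SNRPN transcription unit, and 163 bases downstream in GAS5. The windows printed for SNHG14 and GAS5 therefore lie wholly upstream of their GENCODE genes. Runs at the GENCODE starts were not searched. The GENCODE start lies 1259 bases upstream in SNHG12, 68 upstream in SNHG1 and 37 upstream in SNHG16, and it is the same base in SNHG7.

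Silencing of TAK1 left the spliced host RNAs close to their control levels. None of the 10 host genes passed both the adjusted p of 0.05 and the log2 fold change of 0.25, with 0 higher and 0 lower in edgeR's quasi-likelihood test, in DESeq2 and in limma voom. Of all genes tested, 11.8% were called higher and 11.3% lower at these thresholds. Without the fold threshold, 2 host genes, SNHG14 and SNHG16, were lower at an adjusted p under 0.05, and 0 were higher, beside 17.2% of all genes lower and 16.1% higher. This split depended on the scaling, since with library size alone 3 host genes, GAS5, SNHG5 and SNHG7, were higher and 0 were lower. With upper-quartile normalization 1 was higher and 1 lower. At an unadjusted p under 0.05 there were 4, GAS5, SNHG7, SNHG14 and SNHG16, beside 41.7% of all genes. The log2 fold change was above 0 in 6 host genes and below 0 in 4, as it was above 0 in 8370 of the 15935 genes, with a median of 0.058 against 0.018 over all genes. Its absolute size ran from 0.010 for SNHG8 to 0.17 for SNHG7, with a median of 0.090 against 0.19 over all genes. These medians were not matched for level. Every host gene averaged 10 CPM or more, as did 9711 of the 15935 genes, and log2 fold changes scatter more at low counts. The groups did not overlap for 3 host genes, SNHG5 with TAK1 knockdown higher and SNHG14 and SNHG16 with TAK1 knockdown lower, beside 21.6% of all genes higher and 22.2% lower without overlap. For each of these 3 the two-sided exact permutation p was 0.1, the smallest that 3 samples against 3 can give.

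**Figure D1:**
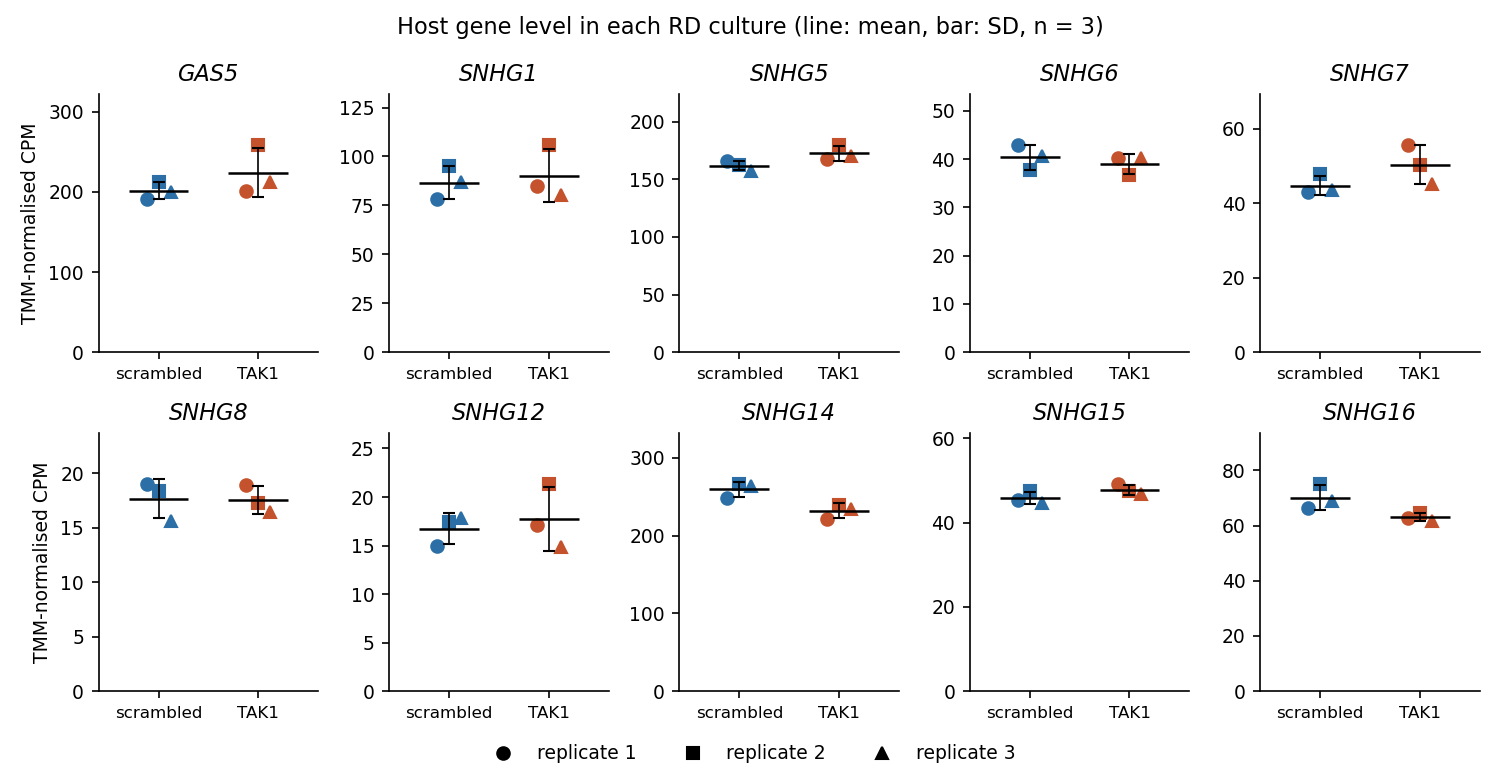
Expression of each host gene in CPM (vertical axis, from 0) in the 3 control (blue) and 3 TAK1 knockdown (red) samples, with the symbol giving the replicate number, the line the mean and the bar the SD (n = 3). SNHG5, SNHG14 and SNHG16 show no overlap between groups, and GAS5, SNHG1 and SNHG12 have their highest value in TAK1 knockdown replicate 2.

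The size of change these data allow was read from the 95% interval of each log2 fold change. For 5 host genes, SNHG1, SNHG5, SNHG6, SNHG8 and SNHG15, the whole interval lay within 0.25 of 0. All intervals here rest on a spread that edgeR's fit moderates across genes. They can be too narrow where the replicates of a gene vary more than those of most genes, as for SNHG1. The intervals of GAS5, SNHG7 and SNHG12 reached above 0.25, to 0.29, 0.32 and 0.31, and those of SNHG14 and SNHG16 reached below -0.25, to -0.26 and -0.27. Across all 10 host genes the intervals covered no decrease beyond -17.2% and no increase beyond 24.4%. These bounds are for trimmed-mean scaling with all 6 samples. Under the alternatives the log2 fold change ran from 0.093 to 0.23 for SNHG7 and from 0.036 to 0.22 for GAS5. For comparison, the interval of MAP3K7 ran from -62.8% to -55.7%.

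**Figure D2:**
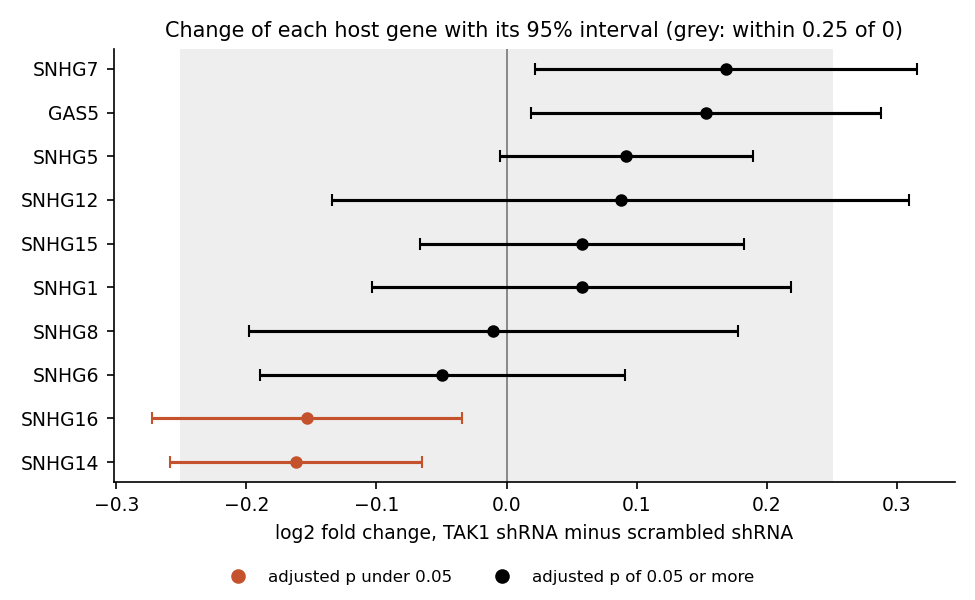
Log2 fold change of each host gene, TAK1 knockdown minus control (horizontal axis), with its 95% interval from edgeR's quasi-likelihood fit, in red where the adjusted p is under 0.05, and with the range within 0.25 of 0 in grey. All 10 points lie in the grey range, from -0.16 for SNHG14 to 0.17 for SNHG7.

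SNHG14 was among the 2 host genes with lower levels at an adjusted p under 0.05. This gene (ENSG00000224078.15, chromosome 15 from 24978583 to 25420336, plus strand) is the long imprinted transcript of the Prader-Willi region. Its annotated span runs through the SNORD116 and SNORD115 clusters and on into the opposite strand of UBE3A. How much of that span RD cells transcribe was not tested. SNHG14 reached 248, 266 and 264 CPM in control replicates 1, 2 and 3 and 221, 240 and 234 CPM in TAK1 knockdown replicates 1, 2 and 3. Every knockdown sample lay below every control sample. The means were 259 ± 9.88 and 232 ± 9.47 CPM (SD, n = 3 each), which is a log2 fold change of -0.16 ± 0.047 (SE, adjusted p = 0.00911, edgeR's quasi-likelihood test). Without control replicate 2 or control replicate 3 the adjusted p was 0.0752 and 0.0576, at log2 fold changes of -0.14 and -0.15, and with scaling by library size it was 0.0647 at -0.11.

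The annotated neighbours of SNHG14 bear on what its counts hold. Exons of SNHG14 and UBE3A, which encodes a ubiquitin ligase and is read from the other strand, share 1822 bases, and whether strand was used in counting is not given in the sources used here. UBE3A measured 133, 131 and 136 CPM in control and 115, 118 and 125 CPM in TAK1 knockdown samples, a log2 fold change of -0.16 (adjusted p = 0.0137, edgeR), so its change was of the same size and sign as that of SNHG14. If strand was not used, reads from the shared bases cannot be told apart. PWAR5, an annotated transcript of the same locus and strand with 3180 exon bases in common with SNHG14, had the other sign, from a mean of 15.96 ± 1.12 to 18.8 ± 1.01 CPM (SD, n = 3), which is a log2 fold change of 0.24 (adjusted p = 0.0385, edgeR). SNRPN, the protein-coding gene upstream in the same transcription unit, had a log2 fold change of -0.10 ± 0.10 (SE, adjusted p = 0.498). In the list of 11 genes of this imprinted cluster, 8 were tested and 0 passed both thresholds in edgeR, DESeq2 or voom (2 at an unadjusted p under 0.05), with a median log2 fold change of -0.11. Of this list 1 gene was called higher with upper-quartile or library-size scaling and without control replicate 1, knockdown replicate 1 or knockdown replicate 2.

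SNHG16 (ENSG00000163597.17, chromosome 17 from 76557727 to 76670985, plus strand) hosts the SNORD1 copies and was the other host gene below an adjusted p of 0.05. Its levels were 66.3, 75.0 and 69.0 CPM in control and 62.8, 64.5 and 61.7 CPM in TAK1 knockdown samples. The groups did not overlap, but the lowest control and the highest knockdown sample were close. The means were 70.1 ± 4.48 and 63.0 ± 1.41 CPM (SD, n = 3), which is a log2 fold change of -0.15 ± 0.058 (SE, adjusted p = 0.0432, edgeR). Without control replicate 2 the log2 fold change was -0.10 and the adjusted p 0.303. The adjusted p was also above 0.05 without control replicate 3, knockdown replicate 1 or knockdown replicate 3, at 0.0817, 0.0545 and 0.0869, with log2 fold changes of -0.17, -0.15 and -0.15.

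GAS5 (ENSG00000234741.10, chromosome 1 from 173858559 to 173868882, minus strand), the growth arrest transcript, measured 191, 212 and 200.3 CPM in control and 201, 258 and 212 CPM in TAK1 knockdown replicates 1, 2 and 3. Knockdown replicates 1 and 3 lay within the control range, and replicate 2 stood above all others. The means were 201 ± 10.7 and 224 ± 30.3 CPM (SD, n = 3), which is a log2 fold change of 0.15 ± 0.065 (SE, adjusted p = 0.0745, edgeR). Without knockdown replicate 2 the log2 fold change was 0.036 (adjusted p = 0.676), and without knockdown replicate 1 it was 0.22 (adjusted p = 0.00432).

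SNHG1 (ENSG00000255717.9, chromosome 11 from 62851978 to 62855953, minus strand), the host of SNORD22 and SNORD25 to SNORD31, had the same shape. Its values were 78.1, 95 and 87.0 CPM in control and 84.7, 106 and 80.2 CPM in TAK1 knockdown replicates 1, 2 and 3, and replicate 2 was the highest in each group. The log2 fold change was 0.058 ± 0.078 (SE, adjusted p = 0.623), and it was -0.076 without knockdown replicate 2. SNHG12 (ENSG00000197989.15, chromosome 1 from 28578538 to 28583132, minus strand), which hosts SNORD99 and 3 box H/ACA snoRNAs, measured 14.9, 17.5 and 17.8 CPM in control and 17.1, 21.3 and 14.9 CPM in knockdown samples. Knockdown replicate 2 lay above the control range, replicate 1 inside it and replicate 3 just under its lower end. The log2 fold change of 0.088 had a standard error of 0.11 (adjusted p = 0.583), and it was -0.071 without knockdown replicate 2.

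GAS5, SNHG1 and SNHG12 varied more between the knockdown replicates than most genes. Their coefficients of variation in the TAK1 knockdown group were 13.5%, 15.1% and 18.4%, against a median of 5.34% over the 9711 genes that averaged 10 CPM or more, where they stood at the percentiles 95.9, 97.5 and 99.1. Among genes within 1.5 times their own mean CPM in that group they stood at the percentiles 99.3, 99.6 and 98.2. In the control group the coefficients were 5.31%, 9.75% and 9.46% against a median of 3.90%, at the percentiles 68.1, 94.4 and 93.6. SNHG1 and SNHG12 thus also varied more than most genes in control samples. So did SNHG8 in control samples, at 10.1% (percentile 95.1), and SNHG7 in knockdown samples, at 10.3% (percentile 88.5). SNHG15 and SNHG16 were among the steadier genes in knockdown samples, at 2.55% and 2.23%, about the 2.54% and 2.21% that counting error alone would give. Of the 10 host genes, 6 had their highest control value in replicate 2 and 6 had their highest knockdown value in replicate 2. For 4 of them, GAS5, SNHG1, SNHG14 and SNHG16, replicate 2 was the highest in both groups. Among all genes tested, replicate 2 was the highest of its group in 29.2% of control and 33.6% of knockdown cases, and in both groups in 11.3%. Among 16 other long RNAs that host snoRNAs these counts were 9, 8 and 4. Replicate 2 was the deepest library of each group, with 31886885 counts in control and 34469323 in TAK1 knockdown cells, where the other 4 libraries held 28839898 to 32710522. The part of depth in this pattern was not tested.

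**Figure D3:**
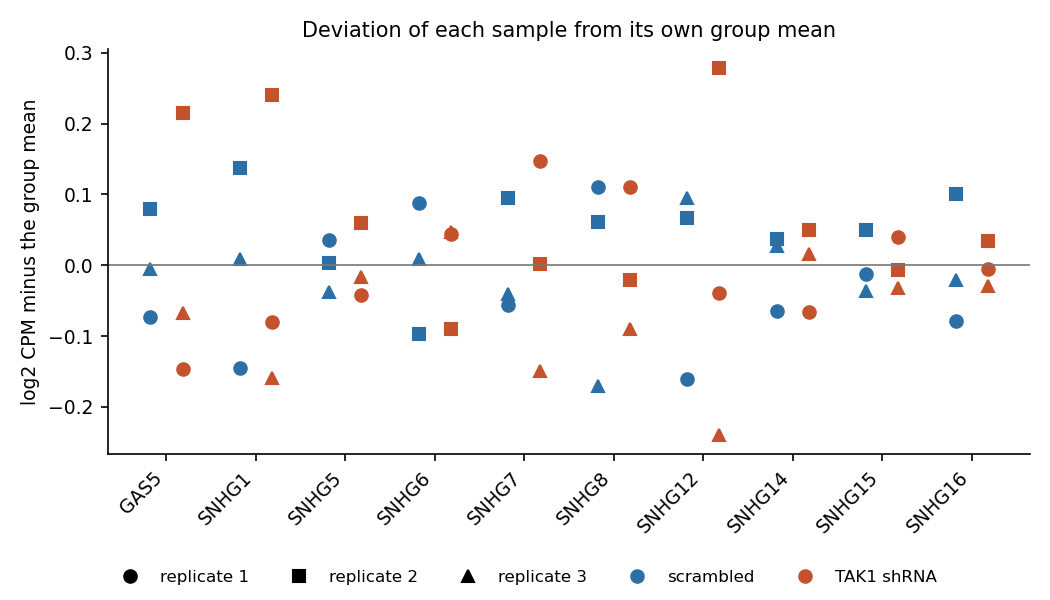
Deviation of each sample from the mean of its own group, in log2 CPM (vertical axis), for each host gene, with control in blue, TAK1 knockdown in red and the symbol giving the replicate number. Knockdown replicate 2 (red squares) is the highest knockdown sample for GAS5, SNHG1, SNHG5, SNHG12, SNHG14 and SNHG16, by the widest margins for GAS5, SNHG1 and SNHG12.

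SNHG7 (ENSG00000233016.9, chromosome 9 from 136721366 to 136728184, minus strand), host of SNORA17A and SNORA17B, had the largest absolute change of the 10. It measured 43.0, 47.7 and 43.4 CPM in control and 55.5, 50.2 and 45.2 CPM in TAK1 knockdown samples. Knockdown replicate 3 lay inside the control range, while the other two lay above it. The means were 44.7 ± 2.62 and 50.3 ± 5.17 CPM (SD, n = 3), which is a log2 fold change of 0.17 ± 0.071 (SE, adjusted p = 0.0714, edgeR). Leaving out knockdown replicate 1 gave 0.093 (adjusted p = 0.330) and leaving out knockdown replicate 3 gave 0.23 (adjusted p = 0.0200).

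SNHG5 (ENSG00000203875.13, chromosome 6 from 85650491 to 85678932, minus strand), host of the SNORD50 pair, was at 166, 162 and 158 CPM in control and 167, 180 and 170 CPM in knockdown samples. Its groups did not overlap, by a margin between 166 and 167 CPM that was narrower than the spread within either group. The log2 fold change was 0.092 ± 0.047 (SE, adjusted p = 0.143). SNHG15 (ENSG00000232956.10, chromosome 7 from 44983019 to 44986961, minus strand), host of SNORA9, measured 45.5, 47.5 and 44.7 CPM in control and 49.1, 47.5 and 46.7 CPM in knockdown samples, with a log2 fold change of 0.058 ± 0.060 (SE, adjusted p = 0.508). Its interval, from -0.067 to 0.18, was the narrowest among the host genes whose groups overlapped.

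SNHG6 and SNHG8 had the log2 fold changes nearest to 0. SNHG6 (ENSG00000245910.9, chromosome 8 from 66920561 to 66926398, minus strand), host of SNORD87, was at 42.9, 37.7 and 40.6 CPM in control and 40.2, 36.6 and 40.3 CPM in knockdown samples, a log2 fold change of -0.049 with an interval from -0.19 to 0.091 (adjusted p = 0.631). SNHG8 (ENSG00000269893.10, chromosome 4 from 118278703 to 118285316, plus strand), host of SNORA24, was at 19.0, 18.4 and 15.6 CPM in control and 18.9, 17.3 and 16.4 CPM in knockdown samples. Its log2 fold change was -0.010 with an interval from -0.20 to 0.18 (adjusted p = 0.948), and it was above 0, at 0.0071 and 0.038, with upper-quartile normalization and with scaling by library size. Exons of SNHG6 share 1488 bases with MCMDC2 and exons of SNHG8 share 2487 bases with PRSS12, each on the opposite strand. Both neighbours were hardly expressed, at control means of 0.466 CPM for MCMDC2 and 0.816 CPM for PRSS12.

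The summed level of the 10 host genes was 915, 979 and 940 CPM in control and 918, 1021 and 922 CPM in TAK1 knockdown samples. The sums overlapped, with means of 945 ± 32.6 and 954 ± 58.2 CPM (SD, n = 3) and a log2 ratio of 0.014. Without SNHG14, which had the highest CPM of the 10, the log2 ratio was 0.075. In bulk RNA a change in the share of cells that express a gene and a change in RNA per cell cannot be told apart.

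Levels were compared between host genes per kilobase of annotated exon, since the host genes differ in length. In control cells GAS5 stood highest, at 40.8 ± 2.17 CPM per kilobase of all exons annotated in GENCODE 44 (SD, n = 3), followed by SNHG1 at 21.8 and SNHG6 at 15.98. SNHG5, SNHG16 and SNHG15 followed at 12.8, 12.1 and 11.6, and the control samples of SNHG16 overlapped with those of both its neighbours in this order. SNHG7 was at 9.14, SNHG12 at 3.92, SNHG8 at 2.67 and SNHG14 at 2.12 CPM per kilobase. The order depended on the length used, because GENCODE 44 gives some host genes many transcripts, 142 for SNHG14 and 91 for GAS5. Per kilobase of the canonical transcript GAS5 was again the highest, at 262 CPM per kilobase, but SNHG16 came next at 141 and SNHG14 moved from the lowest place to the fifth, at 37.0.

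The protein-coding genes that start beside a host gene were also examined. SLC3A2, which encodes the heavy chain of several amino acid transporters, starts 51 bases from SNHG1 on the opposite strand. It measured 115, 105 and 101 CPM in control and 100.1, 88.2 and 87.5 CPM in TAK1 knockdown samples, a log2 fold change of -0.22 (adjusted p = 0.00632, edgeR), under the fold threshold, where SNHG1 had 0.058. ZBTB37, a zinc finger gene that starts 800 bases from GAS5 on the opposite strand, rose from 20.5, 21.1 and 19.1 CPM to 23.3, 25.2 and 28.9 CPM, with no overlap between groups. Its log2 fold change was 0.35 ± 0.084 (SE, adjusted p = 0.00192, edgeR), where GAS5 had 0.15. TRNAU1AP, whose exons share 8 bases with those of SNHG12, had 0.0088 (adjusted p = 0.942). The difference between a host gene and its neighbour was not tested.

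**Figure D4:**
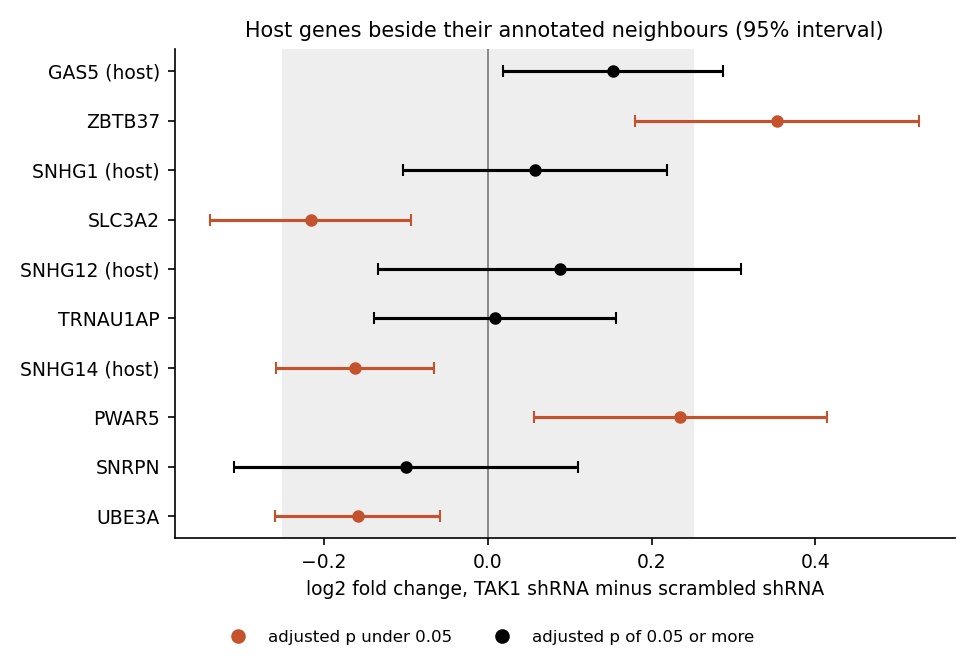
Log2 fold change, TAK1 knockdown minus control (horizontal axis), with its 95% interval for GAS5, SNHG1, SNHG12 and SNHG14 and for some of their annotated neighbours, in red where the adjusted p is under 0.05. ZBTB37, at 0.35, is the neighbour shown that lies beyond the grey range within 0.25 of 0.

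Counts on the snoRNA rows themselves were few. Mature snoRNAs carry no poly(A) tail and are short, so libraries made from polyadenylated RNA are not a measure of them. Of the 118 snoRNAs, 100 matched 1 row each by name, and 21 of these rows held any count. All these rows together held 832 counts over the 6 samples, against 179192 counts on the host genes. Of the 832, 788 were on snoRNA rows of SNHG14. None of the 11 snoRNAs in GAS5 matched a row, while the counts of GAS5 itself are in the total of the host genes. The highest snoRNA row was SNORD116-2 in SNHG14, with 28, 37 and 59 counts in control and 20, 20 and 31 counts in TAK1 knockdown samples, a log2 fold change of -0.90 ± 0.35 (SE, adjusted p = 0.0507, edgeR). Of the 5 snoRNA rows with enough counts to be tested, all copies of SNORD116, 0 passed both thresholds in edgeR, and SNORD116-2 alone had an unadjusted p under 0.05, at 0.0169. SNORD116-1, SNORD116-7 and SNORD116-24 also had log2 fold changes below 0, at -0.46, -0.79 and -0.62, and SNORD116-6 had 0.51. The copies are near-identical, so how reads were divided among them is uncertain. SNORD99 in SNHG12 held 41 counts over the 6 samples, of which 17 were in knockdown replicate 2, the sample in which SNHG12 was highest.

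Other long RNAs that host snoRNAs were taken from a list of 25. Of these, 16 were tested, 2 rose and 0 fell past both thresholds, with a median log2 fold change of 0.11. With scaling by library size the median of all genes moved from 0.018 to 0.066, so the sign of medians and values this close to 0, here and in the lists that follow, depends on the scaling. EPB41L4A-AS1, a SNORA13 host, rose from 17.96 ± 2.57 to 23.4 ± 1.41 CPM (SD, n = 3), which is a log2 fold change of 0.38 (adjusted p = 0.00218, edgeR). ZFAS1, host of the SNORD12 group, rose from 32.8 ± 0.414 to 39.1 ± 0.480 CPM (SD, n = 3), which is a log2 fold change of 0.25 (adjusted p = 0.00301, edgeR) that lay at the fold threshold. Only 1 of this list was called higher with DESeq2 size factors, with the DESeq2 test, without the filter on low counts or without control replicate 3. The share that rose, 2 of 16, stands beside the 11.8% of all genes. DANCR, host of SNORA26, had a log2 fold change of -0.17 (adjusted p = 0.0440), SNHG4 of 0.23 (adjusted p = 0.0840) and SNHG20 of 0.27 (adjusted p = 0.152). LRRC75A-AS1, now named SNHG29 and at 262 CPM in control cells about as highly counted as SNHG14, had 0.11 (adjusted p = 0.0610).

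Proteins that bind, assemble and release snoRNAs were read from 3 lists. Of the 8 core proteins of the snoRNP particles, 2 fell and 0 rose, with a median of -0.14. For this and the other lists of this paragraph, the shares over all genes were 11.3% lower and 11.8% higher. FBL, the methyltransferase of box C/D particles, fell from 288 ± 10.6 to 237 ± 10.6 CPM (SD, n = 3), which is a log2 fold change of -0.28 (adjusted p = 3.74e-05, edgeR). NOP10, a small subunit of the box H/ACA particle, fell from 51.8 ± 1.21 to 39.0 ± 1.52 CPM (SD, n = 3), which is a log2 fold change of -0.41 (adjusted p = 1.03e-05, edgeR). With scaling by library size 1 of the 8 was called lower. DKC1, the pseudouridine synthase, and NOP56, a box C/D core protein, had -0.21 and -0.19 (adjusted p = 0.00268 and 0.00509), under the fold threshold. Of 9 assembly factors, 0 passed both thresholds in edgeR, DESeq2 or voom (2 at an unadjusted p under 0.05), with a median of -0.0082, and RPAP3 had -0.21 (adjusted p = 0.0167). Of 7 enzymes that release or trim snoRNAs, 0 passed both thresholds in edgeR, DESeq2 or voom (2 at an unadjusted p under 0.05), with a median of -0.073. EXOSC10, the nuclear exosome exonuclease, had -0.23 (adjusted p = 0.00127), and DBR1, which opens intron lariats, had -0.19 (adjusted p = 0.0421). One call was gained among the assembly factors without knockdown replicate 3, and another among these enzymes without knockdown replicate 2, each of them lower.

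Among 18 factors of nonsense-mediated decay, 1 rose and 1 fell, beside 11.8% of all genes higher and 11.3% lower, with a median of 0.054. RBM8A, a subunit of the exon junction complex, fell with a log2 fold change of -0.26 (adjusted p = 0.000146, edgeR), and PNRC2, a partner of the decapping machinery, rose with 0.25 (adjusted p = 0.000273, edgeR). No factor was called lower with upper-quartile or library-size scaling or without knockdown replicate 1, and none was called higher with DESeq2, with its size factors, without the filter or without knockdown replicate 2. The exon junction genes MAGOH and EIF4A3 had -0.21 and -0.15 (adjusted p = 0.00688 and 0.0270) and CASC3, of the same complex, had 0.062 (adjusted p = 0.363), while SMG5 and SMG6, which act downstream of UPF1, had 0.16 and 0.23 (adjusted p = 0.00663 and 0.00432), all under the fold threshold. UPF1, the central helicase, had 0.11 (adjusted p = 0.0983).

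Messenger RNAs that share features with the host genes were examined last. Of 38 protein-coding genes that host snoRNAs, 0 rose and 3 fell, beside 11.8% of all genes higher and 11.3% lower, with a median of -0.030. Those that fell were EIF4A2, a translation initiation factor, HSPA9, a mitochondrial chaperone, and WDR43, a ribosome biogenesis factor, with log2 fold changes of -0.37, -0.32 and -0.37 (adjusted p = 9.07e-06, 2.09e-06 and 1.51e-06, edgeR). Of 79 cytosolic ribosomal protein genes, which make up the main group of TOP mRNAs, 0 rose and 2 fell, with a median of -0.043. RPL22 fell with a log2 fold change of -0.45 and RPS21 with -0.33 (adjusted p = 3.56e-07 and 3.32e-06, edgeR). The share of ribosomal protein genes that fell lay below the 11.3% of all genes.

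**Figure D5:**
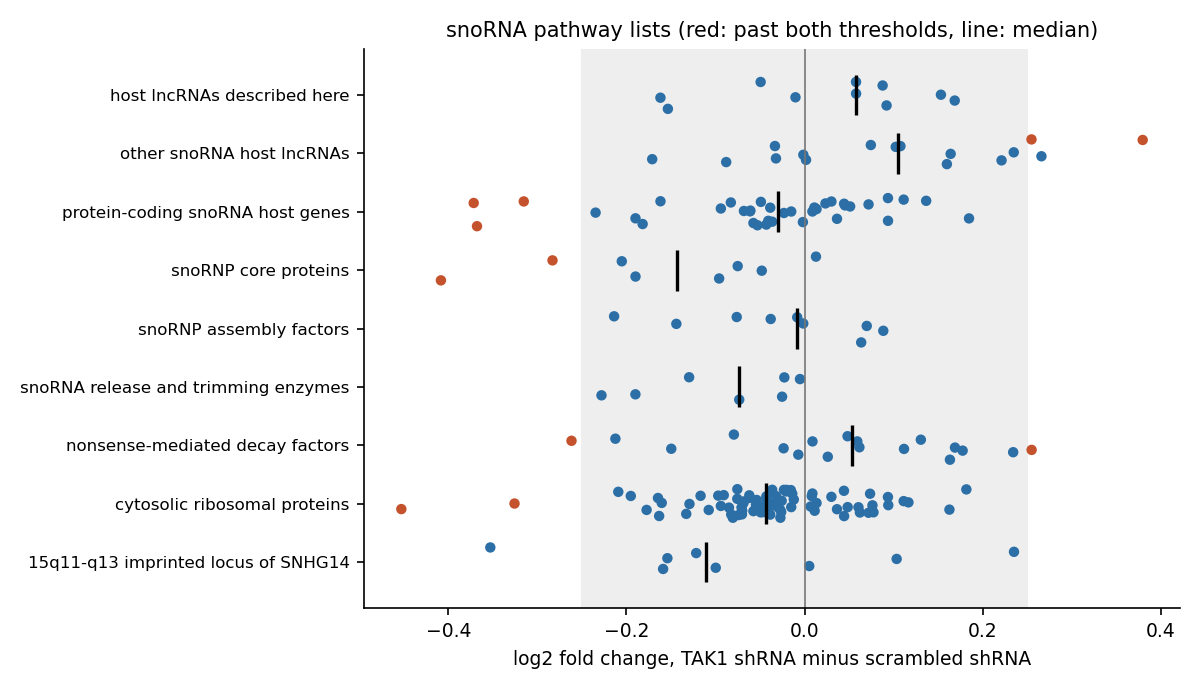
Log2 fold change, TAK1 knockdown minus control (horizontal axis), of each tested gene in the host gene set and in 8 related lists, with genes past both thresholds in red, the median as a line and vertical position within a row only to separate points. The 10 host genes hold no red point, and the 8 core snoRNP proteins have the lowest median, -0.14.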

How the data were processed

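Polyadenylated RNA from 6 RD samples was sequenced by the authors, who called bases with CASAVA, discarded reads with adaptors, uncertain bases or poor quality, and mapped what was left to GRCh38 with STAR. The deposited values are raw counts of reads per gene, without normalization. The counter, the annotation and the use of strand are not given in the sources used here. Depth per sample ran from 28839898 to 34469323 counts, and counting error was below the replicate spread for most host genes and about equal to it for SNHG15 and, in knockdown samples, SNHG16. The least counted host gene, SNHG12, held 424 to 753 counts per sample.

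Counts were filtered with edgeR's default rule, scaled by trimmed-mean (TMM) factors and tested in edgeR 4.0.16 (R 4.3.3) with the quasi-likelihood test and Benjamini-Hochberg adjustment over 15935 genes. A gene was called higher or lower where its adjusted p was under 0.05 and its log2 fold change lay 0.25 or more from 0, as in the study's methods. The standard error (SE) was taken as the absolute log2 fold change over the root of F, and 95% intervals use the fit's degrees of freedom. DESeq2 1.42.0, limma 3.58.1 (voom), DESeq2 size factors, upper-quartile scaling, library size alone, no filter, a minimum of 10 counts in every sample, fold thresholds of 0 and 0.5, a replicate block and leaving out each sample were alternatives. The test was checked on simulated data with log2 changes of 0.5 or more and the same dispersion for every gene. That check does not cover changes as small as those of the host genes. Gene models came from GENCODE 44 and sequences from RefSeq GRCh38.p14 and the hg38 genome.

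The host genes and lists were chosen with earlier results of these data known. Named are the 10 host genes, MAP3K7, annotated neighbours (overlapping, or starting within 1000 bases on the opposite strand), the highest snoRNA row, and list genes past both thresholds. Other list genes and snoRNA rows named were picked after their values were seen, and the window searched for C and T runs was set after the sequences were seen. Some neighbours and list genes are not reported by name here.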

Additional observations from a re-analysis of the deposited data

How the results depend on the processing

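The count of host genes past both thresholds was 0 in each direction under every alternative that kept a fold threshold, and without one it was 2 lower and 0 higher. The log2 ratio of the summed level ran from -0.0395 to 0.0407 with a sample left out and reached 0.0623 with scaling by library size. That scaling put 62.9% of all calls upward, against 51.0%. Of 140 log2 fold changes of host genes under alternatives, 114 kept their direction and side of an adjusted p of 0.05, 9 passed it newly, 9 lost it and 8 changed sign. Sign changed for SNHG1 without control replicate 1 (-0.012) or knockdown replicate 2 (-0.076) and for SNHG12 without knockdown replicate 2 (-0.071). It changed for SNHG8 with upper-quartile normalization (0.0071), with library size (0.038), without control replicate 1 (0.044) or 2 (0.018) and without knockdown replicate 3 (0.023). With a sample left out, SNHG1 ran from -0.076 to 0.13, SNHG8 from -0.092 to 0.044 and SNHG12 from -0.071 to 0.19. The cause was not tested. SNHG14 lost its adjusted p with library size (-0.11), and SNHG16 with upper-quartile normalization (-0.14) and library size (-0.11). Those that passed it newly were GAS5, SNHG5 and SNHG7 with library size (adjusted p = 0.0271, 0.0217 and 0.0247), SNHG7 with upper-quartile normalization (0.0499) and GAS5 without a filter (0.0162), beside those with a sample left out or the block.

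Over all lists, 8 genes were called lower and 3 higher. Without a fold threshold these were 27 and 10, and at a threshold of 0.5 they were 0 and 0. Genes called higher numbered 1 with DESeq2 size factors, without a filter or with the DESeq2 test, 5 with upper-quartile normalization and 6 with library size. With a sample left out there were 8 to 10 lower and 2 to 4 higher.

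Neither the labels nor the study say whether samples of the same replicate number were paired, and a shared replicate effect was not tested. Same-numbered samples correlated at 0.037, 0.036 and 0.016 in their deviations from the group mean. Every sample except control replicate 3 correlated best with its own number. With the replicate block, 0 host genes passed both thresholds, the lists held 8 lower and 3 higher, and the summed log2 ratio was 0.013. GAS5 and SNHG7 passed the adjusted p alone, at 0.00524 and 0.0303.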
